A study of Mus musculus with 19 samples.

Results

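The transcripts of 34 genes for glucose uptake, glycolysis, pyruvate oxidation and the tricarboxylic acid (TCA) cycle were followed through meiotic initiation in mouse male germ cells. The genes were chosen by symbol from knowledge of the pathway and not by their expression, though with earlier results of these data known. All 34 were found among the 22419 symbols of the deposited gene tables. Of these, 33 exceeded 1 TPM (a share of all transcripts after scaling by their length) in at least 1 library and entered the tests with 12517 genes in all. The remaining gene, Pfkp, stayed below 1 TPM in each library.

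RNA-seq was performed on preleptotene cells, the germ cells that enter meiosis, sorted from testes of C57BL/6 males. Spermatogenesis had been synchronized with WIN18,446, an inhibitor of retinoic acid synthesis, given from postnatal day 2 to 8, followed by retinoic acid on day 9, and testes were collected 6.75 days later. There were 3 libraries from Stra8 knock-out (Stra8-deficient) mice, 2 from Stra8 heterozygous mice with low STRA8 protein and 2 from Stra8 heterozygous mice with high STRA8 protein. All 3 groups carried Ddx4-Cre and a Rosa26-tdTomato reporter that marks the germ-cell lineage. The low and high groups differed by STRA8 staining of a piece of the same testis and not by genotype, so no Stra8 wild-type cells were sequenced. The authors place low-STRA8 cells in the early preleptotene stage, just before meiotic initiation, and high-STRA8 cells in its mid or late part, once meiosis had begun. STRA8 level and stage therefore cannot be told apart between these 2 groups. Stra8-deficient cells, by the authors' account, arrive at the preleptotene stage without starting meiosis. In comparisons with them, genotype, STRA8 level and progress through the stage cannot be told apart. ChIP-seq with a FLAG antibody mapped STRA8 in whole, unsorted testes on the same schedule, using 3 Stra8 FLAG/FLAG and 3 wild-type mice on a C57BL/6 background. Each ChIP replicate was 1 mouse, and only the long STRA8 isoform carries the tag.

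In glycolysis, glucose enters through transporters of the SLC2A family, is phosphorylated by hexokinase and is split and oxidized to pyruvate. Pyruvate is reduced to lactate by lactate dehydrogenase, or enters the mitochondrion, where the pyruvate dehydrogenase complex converts it to acetyl-CoA and citrate synthase feeds that into the TCA cycle. In the testis, Sertoli cells are known to supply lactate to spermatocytes, which use it as a fuel, and later germ cells express their own isozymes such as Pgk2, Ldhc and Gapdhs.

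The libraries held 25049625 to 30015072 estimated counts. Stra8 itself was at 5.16 to 22.8 TPM in Stra8-deficient, 236 and 315 TPM in low-STRA8 and 1099 and 1248 TPM in high-STRA8 libraries. The germ-cell marker Ddx4 was at 148 to 213 TPM throughout and passed in no comparison. It is 1 of 9 listed markers of the sorted germ cells, Stra8 among them, and the others were less even. The 9 summed to 4882 to 6805 TPM in Stra8-deficient, 4800 and 4322 TPM in low-STRA8 and 8926 and 10286 TPM in high-STRA8 libraries. At an adjusted p under 0.05, 4 were higher and 1 lower between high and deficient cells. Between high and low, 5 were higher and 0 lower, and between low and deficient 2 were higher and 2 lower. Of 14 transcripts that mark germ cells from pachytene on, 2 exceeded 1 TPM, and Acrv1, Pgk2, Acr and Adam3 were below 0.1 TPM in each library. Of 14 Sertoli cell markers, 13 exceeded 1 TPM. Their summed level was 729 to 967 TPM in Stra8-deficient and 942 to 997 TPM in high-STRA8 libraries, but 999 and 237 TPM in the low-STRA8 replicates 1 and 2. The 13 listed markers of undifferentiated spermatogonia summed to 88.5 to 101 TPM in Stra8-deficient libraries and to 38.4 to 48.4 TPM in the heterozygous libraries. Of the 13, 3 were lower and 0 higher in each heterozygous group. These were Zbtb16 and Sall4 in both groups, Foxo1 in the high and Lin28a in the low group (adjusted p = 0.0506 and 0.0933 in the other group). Id4 and Etv5 had positive estimates between high and deficient cells without passing. Id4 averaged 2.02 TPM in high and 0.958 TPM in deficient libraries (log2 1.15 ± 0.43, adjusted p = 0.0682). The part of the 13 markers' cells in the differences from Stra8-deficient cells was not tested. In these sorted samples, a lower level of a transcript in each cell and a smaller share of the cells that express it cannot be told apart.

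The 34 genes together made up 0.476% to 0.548% of all TPM in a library. Their median level, 87.0 to 109 TPM, was above the median of expressed genes, 21.6 to 27.1 TPM. The plot of TPM by library shows how widely the levels were spread, from 0.13 TPM for Pfkp to 1654 TPM for Gapdh. Gapdh was the most abundant transcript of the set (1188 to 1654 TPM), followed by Pkm (382 to 462 TPM), which encodes pyruvate kinase. Gpi1, the next step after hexokinase, and Pdhb, the beta subunit of pyruvate dehydrogenase, lay between 236 and 379 TPM. At the other end, the glucose transporters, both hexokinases and the phosphofructokinases were at 12.1 TPM or less in each library. Idh2, the mitochondrial NADP-dependent isocitrate dehydrogenase, was at 0.49 to 2.1 TPM, whereas the 3 subunits of the NAD-dependent enzyme of the cycle, Idh3a, Idh3b and Idh3g, were at 71.6 to 214 TPM.

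**Figure D1:**
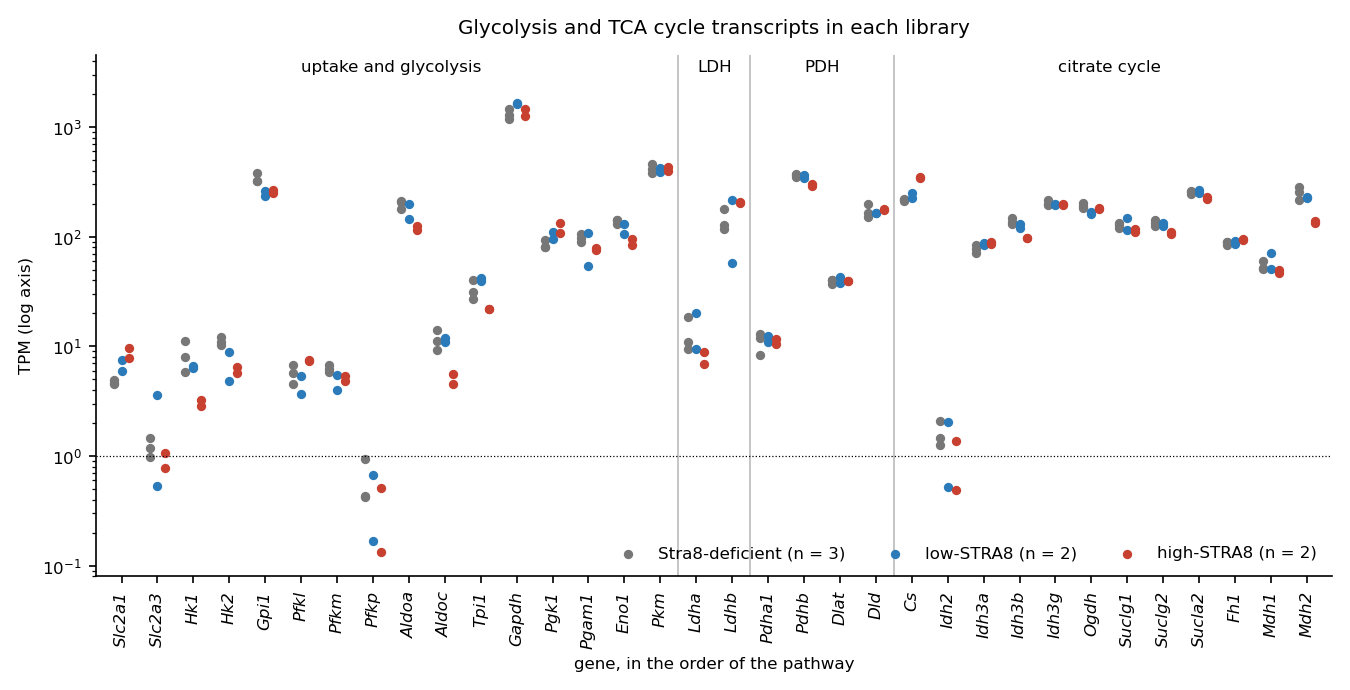
TPM of the 34 genes (log axis, genes in pathway order) in the 7 RNA-seq libraries, one point per library and one color per group. The dotted line marks 1 TPM. Gapdh is highest, at 1188 to 1654 TPM, and Pfkp stays below the dotted line in each library.

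Among the isozymes of the set, aldolase, lactate dehydrogenase and malate dehydrogenase were each carried mainly by a single gene in all 7 libraries. Aldoa gave 92.4% to 96.5% of aldolase TPM, with Aldoc as the rest. Ldhb, which encodes the heart-type subunit of lactate dehydrogenase, gave 85.8% to 96.7% of the Ldha and Ldhb sum. Mitochondrial Mdh2 gave 73.0% to 83.3% of malate dehydrogenase TPM and cytosolic Mdh1 the rest. Hexokinase was split more evenly, with Hk1 at 32.7% to 56.5%, and phosphofructokinase was shared by Pfkl (38.9% to 60.5%) and Pfkm (38.5% to 53.1%). The 2 high-STRA8 libraries had the highest Pfkl shares, 60.5% and 55.9%, and the lowest Pfkm shares, 38.5% and 40.2%. The beta subunits of succinyl-CoA ligase kept nearly one ratio, with the ATP-forming Sucla2 at 64.6% to 67.6%.

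The 3 comparisons ask which of these transcripts differ between Stra8-deficient, low-STRA8 and high-STRA8 cells. They were drawn from one fit and share libraries, so their results are set side by side and not counted as repeats of each other. Of the 33 genes tested, 17 passed an adjusted p of 0.05 in at least 1 comparison and 17 of the 34 in none. Citrate synthase (Cs) passed in all 3.

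Between high-STRA8 and Stra8-deficient cells, 7 genes fell (Hk1, Hk2, Aldoa, Aldoc, Eno1, Idh3b and Mdh2) and 3 rose (Slc2a1, Pgk1 and Cs). The 7 are 21.2% of the genes tested, beside 18.2% of all genes, and the 3 are 9.09%, beside 18.8% of all genes. The median log2 fold change was -0.11 for the set and -0.02 for all genes. By glycolysis step the directions were mixed: 5 of 15 tested genes of uptake and glycolysis fell and 2 rose, neither lactate dehydrogenase gene and none of the 4 pyruvate dehydrogenase complex genes passed, and 2 of 12 cycle genes fell and 1 rose. Libraries did not overlap, on normalized counts, for 16 genes on the low side and 8 on the high side, beside 33.6% and 32.9% of all genes. Leaving out high-STRA8 replicate 1 left 3 genes lower and 1 higher, and leaving out replicate 2 left 4 lower and 3 higher. Hk1, Mdh2 and Cs passed in each of 17 alternative analyses.

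Between high- and low-STRA8 cells, both from heterozygous mice, 11 genes fell (Hk1, Aldoa, Aldoc, Tpi1, Eno1, Pdhb, Idh3b, Suclg1, Suclg2, Sucla2 and Mdh2) and only Cs rose. These are 33.3% and 3.03% of the 33 genes, beside 18.3% lower and 21.3% higher among all genes. The median log2 fold change was -0.26 for the set and 0.01 for all genes, and 27 of 33 estimates were negative. Libraries of the high group lay below both of the low group for 16 genes and above them for 2, beside 36.6% and 38.2% of all genes. The cycle contributed 5 of the 11 genes, and all 3 succinyl-CoA ligase subunits were among them. Transcript length moved with this comparison: among all genes split into 3 equal classes by length, the shortest class had a median log2 fold change of -0.25 and the longest 0.30, and 16 of the 33 genes were in the shortest class. Medians of the set were -0.42, -0.05 and -0.13 in the shortest, middle and longest classes (16, 10 and 7 genes), beside -0.25, -0.02 and 0.30 for all genes. With the length trend removed, 7 genes fell and 1 rose, and Pdhb, Idh3b, Suclg1 and Sucla2 lost their calls. On log2(TPM + 1) with limma, where the median of all genes was 0.11, 7 genes fell. Without high-STRA8 replicate 1 the count was 3 lower and 0 higher, without replicate 2 it was 4 and 0, and without low-STRA8 replicate 1 it was 9 lower and 3 higher. Without low-STRA8 replicate 2 it was 14 lower and 1 higher, with Slc2a3, Hk2, Pgam1, Ldha, Idh2 and Mdh1 added and Pdhb, Suclg2 and Sucla2 lost. Tpi1 and Mdh2 passed in each of 18 alternatives. Hemoglobin transcripts also differed: 4 of 14 blood and macrophage markers were lower in high-STRA8 cells, with the list summing to 55.2 and 57.5 TPM in low-STRA8 and to 2.83 and 10.2 TPM in high-STRA8 libraries. Its part in the result was not tested.

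Between low-STRA8 and Stra8-deficient cells, 6 genes rose (Slc2a1, Tpi1, Gapdh, Pgk1, Cs and Idh3a) and 0 fell by edgeR's quasi-likelihood test. The 6 are 18.2% of the genes tested, beside 10.1% of all genes, and 13.9% of all genes fell. At an unadjusted p under 0.05 edgeR gave 2 genes lower, DESeq2 called 0 lower at the adjusted threshold, and limma on log2(TPM + 1) called 1, Gpi1. The median log2 fold change of all genes was 0.03 in the edgeR fit and -0.15 with limma on log2(TPM + 1), where 0 genes rose and 2 were higher at an unadjusted p under 0.05. The median of the set in the edgeR fit was 0.16. Libraries did not overlap for 13 genes on the high side and 2 on the low side, beside 25.1% and 25.5% of all genes. The length trend ran the other way here, with medians of 0.22 and -0.25 for the shortest and longest classes of all genes, and with it removed 3 genes rose. Without Stra8-deficient replicate 1 or 2, or low-STRA8 replicate 1, 2, 1 and 1 genes rose (with 3, Hk2, Pgam1 and Ldhb, lower in the last case), and without high-STRA8 replicate 1 or 2, 2 and 3 genes. Of the 14 blood and macrophage markers, 3 hemoglobin genes (Hba-a1, Hbb-bs and Hbb-bt) were higher in low-STRA8 than in Stra8-deficient cells. Hbb-bs was at 22.9 and 27.0 TPM in low-STRA8 and at 4.52 to 9.22 TPM in deficient libraries. The whole list summed to 55.2 and 57.5 TPM in low-STRA8 and to 20.5, 12.2 and 44.3 TPM in deficient libraries. In deficient replicate 3 the sum also held macrophage transcripts, such as Lyz2 at 8.14 TPM, against 0.0897 to 0.684 TPM in the other libraries. The part of these transcripts in the result was not tested.

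**Figure D2:**
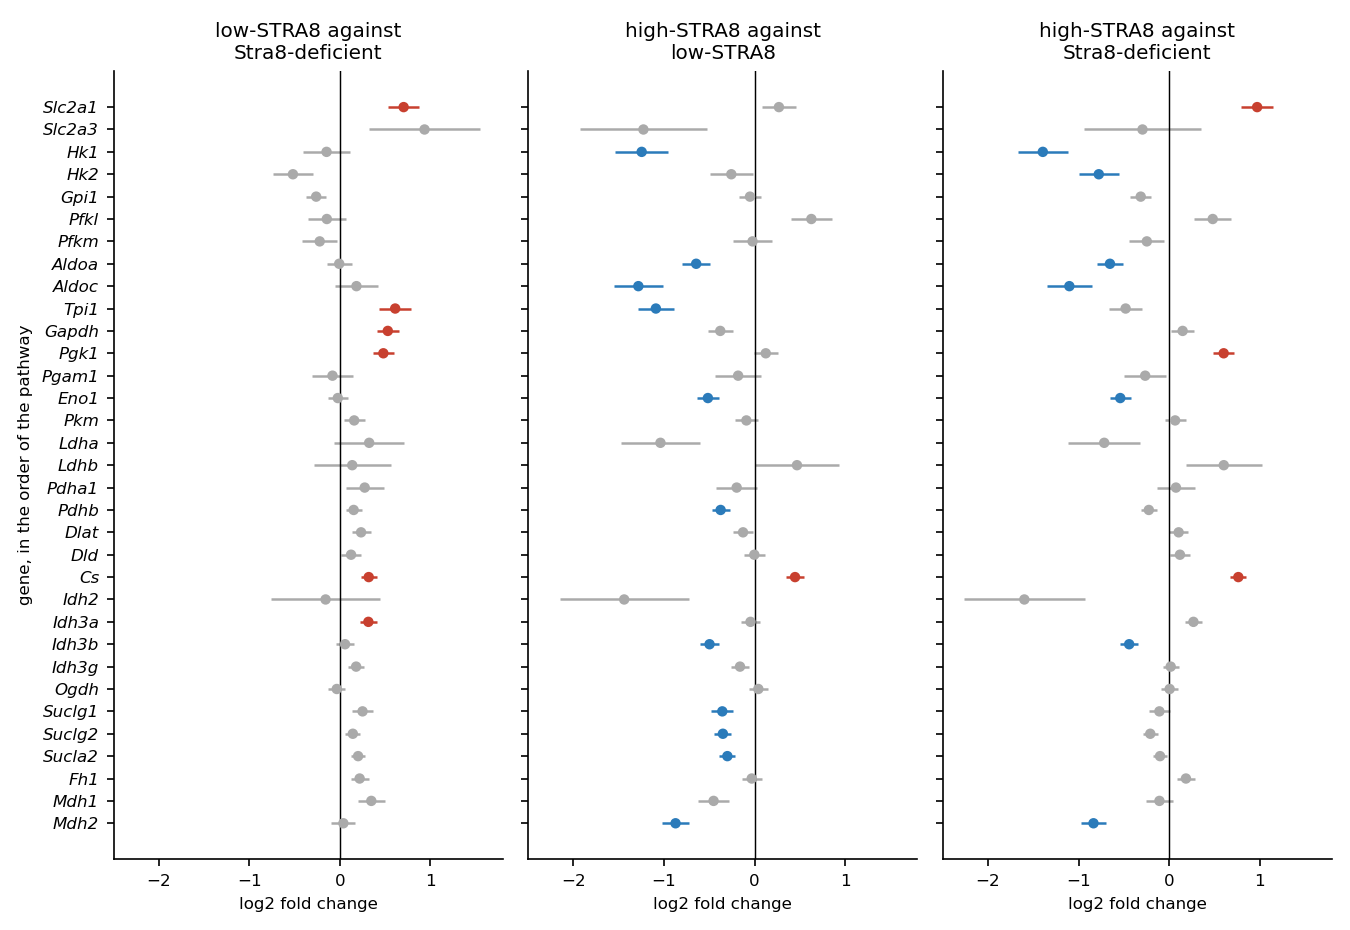
Log2 fold change of the 33 genes tested in the 3 comparisons (edgeR, points) with its standard error (bars), genes in pathway order. Red and blue mark genes higher and lower at an adjusted p under 0.05, and gray those that did not pass. The middle panel holds 11 blue points and 1 red, and the left panel 6 red and 0 blue.

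Slc2a1 encodes GLUT1, the basal glucose transporter. It was at 4.57, 4.67 and 4.91 TPM in the Stra8-deficient libraries, 7.55 and 5.92 TPM in the low-STRA8 libraries and 9.61 and 7.84 TPM in the high-STRA8 libraries. No library of the deficient group reached a heterozygous one, and the high- and low-STRA8 libraries lay next to each other, without overlap in TPM and with overlap in normalized counts. On the log2 scale it rose by 0.97 ± 0.17 (SE) from deficient to high (adjusted p = 0.00318) and by 0.70 ± 0.17 from deficient to low (adjusted p = 0.0224). Without high-STRA8 replicate 1 the first adjusted p was 0.0523. The second call was lost in 6 of 17 alternatives, on log2 TPM with limma and without Stra8-deficient replicate 1 or 2, low-STRA8 replicate 1 or high-STRA8 replicate 1 (0.0865 at most). The difference between high and low was 0.27 ± 0.19 (adjusted p = 0.295). Slc2a3, which encodes the high-affinity transporter GLUT3, was at 0.54 to 3.57 TPM, both extremes in low-STRA8 libraries, and passed in no comparison. Without low-STRA8 replicate 2 it passed in both comparisons with the low group (adjusted p = 0.00621 and 0.00806).

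Both hexokinases fell in high-STRA8 cells. Hk1 was at 7.96, 5.90 and 11.2 TPM in Stra8-deficient, 6.63 and 6.28 TPM in low-STRA8 and 2.88 and 3.25 TPM in high-STRA8 libraries. The high libraries lay below all 5 others, while the low libraries lay within the deficient range. The log2 fold change was -1.39 ± 0.27 against deficient (adjusted p = 0.00511) and -1.25 ± 0.29 against low (adjusted p = 0.0115). The second was 0.0672 and 0.0634 without high-STRA8 replicate 1 and 2. Hk2 was at 10.2, 12.1 and 10.96 TPM in deficient, 8.83 and 4.84 TPM in low and 5.69 and 6.43 TPM in high libraries. Here the low libraries straddled the high ones, and only high against deficient passed (-0.78 ± 0.22, adjusted p = 0.0254). That call was lost when any of 4 libraries was left out, Stra8-deficient replicate 2 or 3 or either high-STRA8 replicate, with an adjusted p of up to 0.163.

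Gpi1, glucose-6-phosphate isomerase, averaged 341 ± 32.1 (SD, n = 3) TPM in Stra8-deficient, 247 ± 16.3 (n = 2) in low and 259 ± 10.6 (n = 2) in high libraries, with an adjusted p of 0.0614 for high against deficient. It passed without Stra8-deficient replicate 1 or either low-STRA8 library (lowest adjusted p = 0.0446). Phosphofructokinase catalyzes the committed step. Pfkl was at 5.71 ± 1.12, 4.52 ± 1.196 and 7.47 ± 0.0762 TPM in the 3 groups and differed by 0.63 ± 0.23 between high and low (adjusted p = 0.0581), and without low-STRA8 replicate 1 with an adjusted p of 0.0238. Pfkm, the muscle-type subunit, was at 5.85, 6.83 and 6.24 TPM in deficient, 5.51 and 4.04 TPM in low and 4.79 and 5.33 TPM in high libraries, with the low and high ranges overlapping and no test passed (lowest adjusted p = 0.357). Pfkp ranged from 0.13 to 0.93 TPM.

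The aldolases, which split fructose bisphosphate, fell in high-STRA8 cells only. Aldoa was at 178, 210.2 and 205 TPM in Stra8-deficient, 197 and 145 TPM in low-STRA8 and 125 and 115 TPM in high-STRA8 libraries, so that the high libraries were below all others. Its log2 fold change was -0.65 ± 0.14 against deficient and -0.64 ± 0.15 against low (adjusted p = 0.00759 and 0.0117). Without high-STRA8 replicate 2 these were 0.0698 and 0.0825. Aldoc was at 11.2, 9.31 and 14.2 TPM in deficient, 10.96 and 11.9 TPM in low and 4.53 and 5.65 TPM in high libraries, again with the high libraries apart from the other 5. It differed by -1.10 ± 0.25 and -1.28 ± 0.27 in the same 2 comparisons (adjusted p = 0.00994 and 0.00752), and without high-STRA8 replicate 1 by an adjusted p of 0.0950 and 0.0622.

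The triose steps were highest in low-STRA8 cells. Tpi1, triosephosphate isomerase, was at 30.98, 27.1 and 40.4 TPM in Stra8-deficient, 42.3 and 39.7 TPM in low-STRA8 and 21.8 and 22.1 TPM in high-STRA8 libraries. It fell from low to high by 1.09 ± 0.20 on the log2 scale (adjusted p = 0.00436) and rose from deficient to low by 0.61 ± 0.18 (adjusted p = 0.0390), although on the TPM scale deficient replicate 3 lay within the low range. The rise lost its call in 10 of 17 alternatives, 6 of which left out 1 library, and of the single libraries only Stra8-deficient replicate 3 could be removed without ending it. Gapdh, the glyceraldehyde phosphate dehydrogenase often used as a reference transcript, was at 1188, 1281 and 1447 TPM in deficient, 1654 and 1634 TPM in low and 1447 and 1256 TPM in high libraries. The low libraries were above the other 5, and low against deficient was 0.53 ± 0.12 (adjusted p = 0.0186), with 0.0575 for high against low. On log2(TPM + 1) with limma that difference did not pass, nor did it without Stra8-deficient replicate 2 or low-STRA8 replicate 2.

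Pgk1, the X-linked phosphoglycerate kinase that makes the first ATP of the pathway, was at 80.9, 92.6 and 79.8 TPM in Stra8-deficient, 110.4 and 95.7 TPM in low-STRA8 and 134 and 108 TPM in high-STRA8 libraries. Each heterozygous library was above each deficient one, and the low and high ranges overlapped. It rose by 0.60 ± 0.12 from deficient to high and by 0.48 ± 0.12 from deficient to low (adjusted p = 0.00511 and 0.0228). The first lost its call without high-STRA8 replicate 1, where it was 0.45, and the second in 6 of 17 alternatives. These 6 were both limma fits on log2 TPM, the length trend removed, the replicate block, and Stra8-deficient replicate 1 or low-STRA8 replicate 1 left out. The 2 Pgk1 pseudogenes among its copies held 4.86% to 19.2% of the counts of gene and copies together. With their counts added the adjusted p values were 0.00219 and 0.00983.

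Pgam1, phosphoglycerate mutase, was at 89.3, 96.4 and 106 TPM in Stra8-deficient, 108 and 54.2 TPM in low-STRA8 and 74.9 and 78.9 TPM in high-STRA8 libraries. The high libraries lay below the deficient ones and between the low ones, and no comparison passed (lowest adjusted p = 0.408). Without low-STRA8 replicate 2 high against low was at 0.0304, and without low-STRA8 replicate 1 low against deficient was at 0.0375. Eno1, enolase, was at 141, 131 and 142 TPM in deficient, 131 and 105 TPM in low and 84.0 and 95.5 TPM in high libraries, and the high libraries were the lowest. It fell by 0.54 ± 0.11 against deficient and by 0.52 ± 0.12 against low (adjusted p = 0.00713 and 0.0127), with 0.0886 and 0.108 when high-STRA8 replicate 1 was left out. Pkm was at 382, 462 and 411 TPM in deficient, 423 and 385 TPM in low and 436 and 393 TPM in high libraries, with full overlap of the groups and a lowest adjusted p of 0.356.

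Neither lactate dehydrogenase gene passed with all libraries. Ldha, the muscle-type subunit, averaged 13.0 ± 4.80 (SD, n = 3), 14.8 ± 7.49 (n = 2) and 7.89 ± 1.33 (n = 2) TPM in deficient, low and high libraries. Ldhb averaged 141 ± 33.4, 137 ± 111 and 207 ± 2.72 TPM. The 2 low-STRA8 libraries stood apart from each other, at 216 and 58.0 TPM in replicates 1 and 2, in the same order as their Sertoli marker sums of 999 and 237 TPM. The part of Sertoli cell RNA in Ldhb was not tested. Without low-STRA8 replicate 1, Ldhb differed by -1.04 between low and deficient, with an adjusted p of 0.0272, against 0.14 ± 0.42 and 0.846 with both, and by 1.64 between high and low (adjusted p = 0.00328). Between high and deficient Ldhb was 0.60 higher, with an adjusted p of 0.294 with all libraries and of 0.0239 and 0.0238 without low-STRA8 replicate 1 and 2. Without low-STRA8 replicate 2, low against deficient was 0.77 (adjusted p = 0.0362).

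Within the pyruvate dehydrogenase complex, Pdhb was at 363, 373 and 353 TPM in Stra8-deficient, 339 and 362 TPM in low-STRA8 and 289 and 303 TPM in high-STRA8 libraries. The high libraries were the lowest, and high against low was -0.37 ± 0.10 (adjusted p = 0.0178), with 0.0859 for high against deficient. The first call did not hold on log2 TPM with limma or with the length trend removed, nor without low-STRA8 replicate 2 or either high-STRA8 library. Pdha1, the X-linked alpha subunit, was at 11.9, 8.37 and 13.0 TPM in deficient, 12.5 and 11.02 TPM in low and 10.5 and 11.7 TPM in high libraries, with overlap throughout. Its autosomal isozyme Pdha2, outside the set and named after its values were seen, was higher, at 18.3 to 32.5 TPM. The acetyltransferase Dlat (36.8 to 42.6 TPM) and the dehydrogenase Dld, which the oxoglutarate complex shares (151 to 197 TPM), passed in no comparison.

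Cs had the lowest adjusted p of the set. Citrate synthase joins acetyl-CoA to oxaloacetate and opens the cycle. It was at 214, 211 and 221 TPM in Stra8-deficient, 248 and 223 TPM in low-STRA8 and 348 and 345 TPM in high-STRA8 libraries. The groups did not overlap, and the high libraries stood well above the other 5. It rose 1.70-fold from deficient to high (log2 0.77 ± 0.09, adjusted p = 0.000424) and by 0.45 ± 0.10 from low to high (adjusted p = 0.00839). The latter was up to 0.0869 when a high-STRA8 library was left out. The step from deficient to low was 0.32 ± 0.09 (adjusted p = 0.0331), and it was lost in 10 of 17 alternatives, leaving out any library other than Stra8-deficient replicate 3 among them.

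Mdh2, which regenerates oxaloacetate at the end of the cycle, moved the other way. It was at 258, 217 and 286 TPM in Stra8-deficient, 229.6 and 223 TPM in low-STRA8 and 139 and 134 TPM in high-STRA8 libraries. The low libraries lay inside the deficient range and the high ones far below it. It fell to 0.56 of the deficient level (log2 -0.83 ± 0.14, adjusted p = 0.00223) and by 0.87 ± 0.15 against low (adjusted p = 0.00331). Cytosolic Mdh1 averaged 54.4 ± 5.05, 61.0 ± 14.7 and 47.9 ± 2.31 TPM and passed in no comparison (0.0606 for high against low), though without low-STRA8 replicate 2 its adjusted p was 0.0226.

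Of the isocitrate dehydrogenase 3 subunits, Idh3b alone fell. It was at 146, 137 and 131 TPM in Stra8-deficient, 119 and 130.5 TPM in low-STRA8 and 97.1 and 97.5 TPM in high-STRA8 libraries, with the high libraries below all others. The log2 fold change was -0.44 ± 0.10 against deficient and -0.50 ± 0.11 against low (adjusted p = 0.00921 and 0.00839), and both were lost when either high-STRA8 library was left out (0.124 at most). Idh3a, the catalytic subunit, was at 84.7, 71.6 and 77.3 TPM in deficient, 86.9 and 84.0 TPM in low and 86.6 and 90.3 TPM in high libraries, with a small overlap of low and deficient. It passed only for low against deficient (0.31 ± 0.10, adjusted p = 0.0490) and lost that call in 13 of 17 alternatives, 6 of which left out 1 library. Idh3g averaged 202 ± 10.3, 198 ± 3.27 and 196 ± 2.99 TPM. Idh2, at 1.61 ± 0.438, 1.28 ± 1.07 and 0.927 ± 0.616 TPM, passed in no comparison.

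The succinyl-CoA ligase subunits each fell by less than 0.4 on the log2 scale from low to high. Suclg1, the shared alpha subunit, was at 121, 132 and 129 TPM in Stra8-deficient, 148 and 116 TPM in low-STRA8 and 111 and 118 TPM in high-STRA8 libraries, so that low replicate 2 lay among the high libraries. Suclg2, the GTP-forming beta subunit, was at 133, 141 and 125 TPM, then 132 and 125 TPM, then 107 and 111 TPM. Sucla2 was at 261, 258 and 245 TPM, then 264 and 249 TPM, then 223 and 229.9 TPM. For the beta subunits the high libraries were below all others. High against low was -0.36 ± 0.12 for Suclg1, -0.35 ± 0.09 for Suclg2 and -0.30 ± 0.09 for Sucla2 (adjusted p = 0.0496, 0.0189 and 0.0271). The 3 calls were lost in 11, 5 and 9 of 18 alternatives, each time including the removal of either high-STRA8 library.

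Ogdh, the first subunit of the oxoglutarate dehydrogenase complex, was at 184, 204 and 189 TPM in Stra8-deficient, 161 and 167 TPM in low-STRA8 and 184 and 179 TPM in high-STRA8 libraries. The low libraries were the lowest on the TPM scale, but on normalized counts the groups overlapped and the log2 fold changes were -0.04 to 0.04. Fh1, fumarase, averaged 86.9 ± 3.23, 88.1 ± 4.54 and 93.8 ± 1.63 TPM and passed in no comparison.

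**Figure D3:**
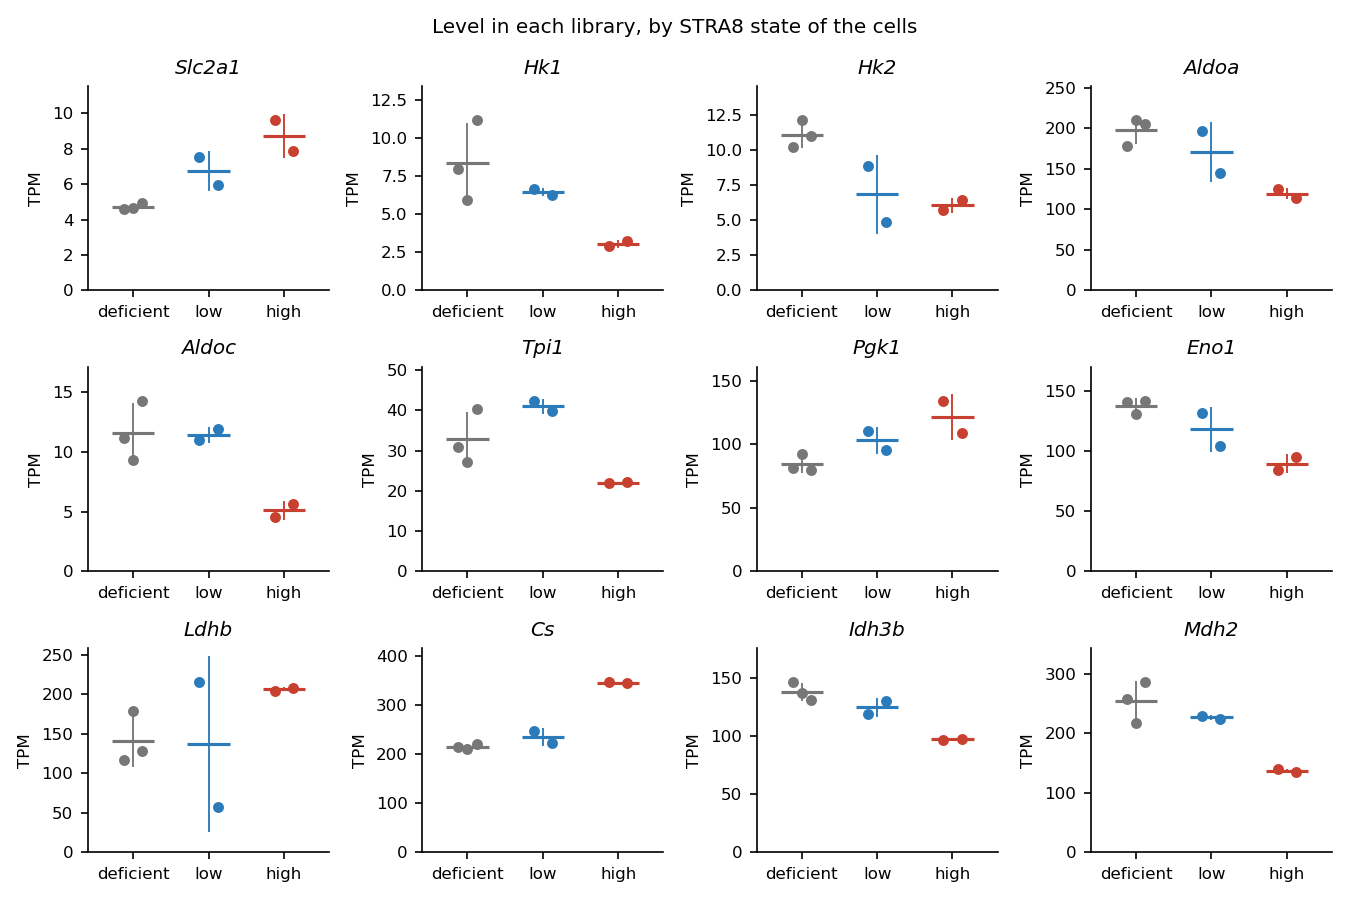
TPM of 12 genes in each library (points), with the group mean (horizontal line) and SD (vertical line), for Stra8-deficient (n = 3), low-STRA8 (n = 2) and high-STRA8 (n = 2) cells. Each axis starts at 0. Cs and Mdh2 in high-STRA8 cells lie apart from the other 5 libraries in opposite directions, and Ldhb shows the gap between the low-STRA8 libraries, 216 and 58.0 TPM.

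STRA8 summits, the positions of highest FLAG signal in a peak, were looked for within 1 kb of the transcription start sites (TSSs). A gene counted as bound if 2 or more of the 3 FLAG/FLAG libraries and no wild-type library had a summit there. By this rule 5 of 34 genes were bound (Pfkm, Pgam1, Pkm, Cs and Suclg2), beside 22.5% of 12488 expressed genes. Slc2a1, Pdha1 and Ogdh had a summit in 1 FLAG/FLAG library, which brings the number to 8, beside 38.3% of expressed genes, and Pfkm, Pkm and Cs had one in all 3, beside 11.9%. No gene of the set had a wild-type summit. Without FLAG replicate 1 or 2 the count of bound genes was 3, and it was 3 at a score (-log10 p) of at least 10. Of the 5 bound genes, Cs rose and Suclg2 fell in a comparison above, and the other 3 passed in none. Slc2a1, with a summit in 1 library, rose. Pgk1, Gapdh, Idh3a and Tpi1, which also rose in a comparison, had no summit within 1 kb in any FLAG library. The other genes that fell, Hk1, Hk2, Aldoa, Aldoc, Tpi1, Eno1, Pdhb, Idh3b, Suclg1, Sucla2 and Mdh2, had no summit within 1 kb in any FLAG library.

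At Cs (chromosome 10, 128337734-128362479, plus strand, mm10), the summits lay 58 and 225 bases downstream of the TSS in FLAG replicate 1, with scores of 7.84 and 9.17, 211 bases downstream in replicate 2, with a score of 18.02, and 264 bases downstream in replicate 3, with a score of 9.88. These positions fall in the first exon, in the 5' untranslated part and the coding part, and at the start of the first intron. At Pkm (chromosome 9, 59656368-59679375, plus strand), summits lay 1, 94 and 53 bases downstream of the outermost TSS in replicates 1, 2 and 3 (scores 15.4, 16.2 and 13.1), and replicates 1 and 2 had further summits 679 and 630 bases downstream of a second TSS, in an intron. At Pgam1 they were 104 and 271 bases upstream (scores 14.0 and 12.3), and at Suclg2 18 bases upstream and 61 bases downstream (scores 21.2 and 9.06). The Pfkm summits, with scores of 26.5, 17.95 and 10.8, were the farthest, 717, 778 and 849 bases into the gene, where they were also 55, 116 and 187 bases upstream of the TSS of Senp1, so they cannot be assigned to one of the 2 genes.

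**Figure D4:**
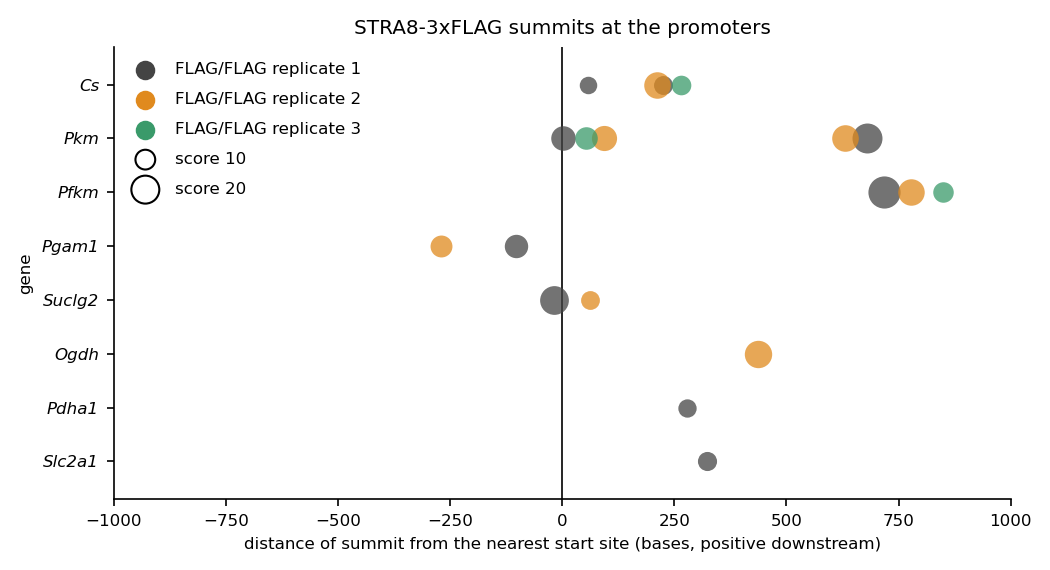
Distance of each FLAG/FLAG summit from the nearest TSS (horizontal axis, bases, positive downstream) at the 8 genes with any FLAG/FLAG summit, with the point area in proportion to the score and a color per replicate. Cs, Pkm and Pfkm have points of all 3 replicates, and those of Pfkm lie 717 to 849 bases downstream.

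The sequence CNCCTCAG, a motif that the study associates with STRA8 sites, was searched on both strands. It was present within 1 kb of a TSS in 19 of 34 genes, or 55.9%, beside 46.3% of expressed genes and 61.7% of bound expressed genes. Cs had 4 matches, at -885, -671, 57 and 273 bases from its TSS, and Hk1, which had no summit, had 3. Within 100 bases centered on a summit the motif was found at 12.6% of 9037 promoter summits of the FLAG/FLAG libraries. Among the set it was found there only at Cs, in replicates 1 and 3. The sequences below, from the GRCm38.p6 (mm10) genome of RefSeq and on the plus strand, show the 30 bases around the match at the Cs summit near the TSS (chr10:128337776-128337805), the 100 bases around the intronic Cs summit (chr10:128337948-128338047) and, for contrast, the 100 bases around the Pgam1 summit of FLAG replicate 1 (chr19:41911769-41911868), which holds none. The 100 bases around the intronic Cs summit begin in the coding part of the first exon, where a FLAG replicate 1 summit lies (128337959). Capitals mark the match, which reads CTGAGGCG at the intronic site because it lies on the minus strand. A match is a description of these letters and not of a functional site.
Cs near the TSS: tgtctacccttCCCCTCAGccgcctccttt
Cs first intron: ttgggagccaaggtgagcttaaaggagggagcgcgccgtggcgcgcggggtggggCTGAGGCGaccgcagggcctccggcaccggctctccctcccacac
Pgam1 upstream: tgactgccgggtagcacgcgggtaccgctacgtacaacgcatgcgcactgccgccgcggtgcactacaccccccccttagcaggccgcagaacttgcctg

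Transcript levels within a gene were compared as shares of its TPM, as a description, with no test. Pkm has 2 mutually exclusive exons of 167 bases, of which the upstream one (chr9:59675029-59675195) is known to give the M1 form and the downstream one (chr9:59675568-59675734) the M2 form of pyruvate kinase. The transcript with the M2 exon made up 62.6% to 68.7% of Pkm TPM in each library and the one with the M1 exon 31.3% to 37.4%, with both heterozygous groups inside the Stra8-deficient range. These transcripts also differ at their ends, so the shares do not rest on the exons alone. Sucla2-203 was at 34.8% to 46.5% of Sucla2, Ogdh-201 at 44.3% to 61.5% of Ogdh and Tpi1-205 at 45.9% to 63.0% of Tpi1. Groups overlapped for Sucla2 and Tpi1, whereas for Ogdh both low-STRA8 shares, 46.4% and 46.8%, lay just below the high-STRA8 ones, 47.0% and 61.5%. The 4 Hk1 transcripts were uneven, with Hk1-201 at 43.5% to 69.5% in the other 6 libraries but at 10.4% in high-STRA8 replicate 2. That same library held 8.42% of Aldoa as Aldoa-201, against 97.1% to 99.8% in the others, and 23.2% of Gapdh as Gapdh-202, against 52.3% to 66.6%. Pfkm, Ldha, Idh3a and Pfkp shares also varied within groups. The Idh2 transcript Idh2-207 was at 43.6% and 50.8% in high-STRA8 libraries and at 0 in the others, in a gene at 0.49 and 1.36 TPM in those libraries.

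Reads of some genes could be shared with close copies. In 11 of 34 genes more than 20% of the stretches of 31 bases also occur in other genes, most in Gapdh (79.9%), Pgk1 (68.3%), Eno1 (58.0%) and Pkm (50.3%). A copy was counted only if that single other gene held at least 20% of the stretches. Of the counts of gene and copies together, the copies held 3.26% to 4.20% for Gapdh and 6.25% to 11.3% for Eno1. For Eno1 the main copy was Eno1b. Besides Gapdh, Eno1 and Pgk1, copies held at most 0.466% of such combined counts for a gene of the set. With the counts of copies added, the numbers of genes rising and falling in the 3 comparisons were the same as without. Genes with no such copy, among them Aldoa (20.5% of stretches shared) and Ldha (29.3%), kept their counts there, so sharing was not tested for them.

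Genes around the pathway were divided into 4 lists. Of 21 tested genes for steps and subunits of the cycle outside the set, 8 fell and 3 rose between high-STRA8 and Stra8-deficient cells, beside 18.2% and 18.8% of all genes. Between high and low, 11 fell and 1 rose, beside 18.3% and 21.3%, and between low and deficient 5 rose and 1 fell, beside 10.1% and 13.9%. Of 17 regulators of glycolysis and pyruvate use, 6 rose and 4 fell, 4 rose and 5 fell, and 7 rose and 1 fell in the same order of comparisons. Of 8 tested genes of the pentose phosphate shunt, 2 rose and 1 fell, 0 rose and 1 fell, and 3 rose and 0 fell. Of 13 tested isozymes, 2 rose and 2 fell, 3 rose and 2 fell, and 2 rose and 0 fell. By the rule above, 4 of 21 tested genes in the cycle list and 6 of 17 in the regulator list counted as bound. In the shunt and isozyme lists 4 of 8 and 1 of 13 tested genes did, beside 22.5% of expressed genes. Whether summits of the 4 lists also lay near the TSS of another gene was not checked.

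Slc16a1, which encodes the lactate and pyruvate carrier MCT1, was at 48.5, 41.7 and 40.5 TPM in Stra8-deficient, 68.0 and 59.5 TPM in low-STRA8 and 95.4 and 94.9 TPM in high-STRA8 libraries. The groups were in 3 separate steps. It rose by 1.21 ± 0.10 from deficient to high (adjusted p = 9.8e-05), and summits lay at -231, -237 and -190 bases from its TSS in the FLAG replicates, with scores of 58.5, 31.9 and 40.1. Slc2a4, the insulin-responsive transporter GLUT4, was at 3.47, 3.32 and 2.89 TPM, then 8.12 and 5.75 TPM, then 12.6 and 12.3 TPM, and rose by 2.03 ± 0.19 with no summit (adjusted p = 0.000172).

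Enzymes that set pyruvate dehydrogenase activity moved in both directions. Pdp1, a phosphatase that activates the complex, was at 45.0, 43.4 and 34.3 TPM in deficient, 58.4 and 47.2 TPM in low and 75.2 and 78.5 TPM in high libraries, and rose by 1.02 ± 0.12 (adjusted p = 0.000559) with summits in 2 FLAG libraries. The second phosphatase, Pdp2, rose by 1.34 ± 0.27 (adjusted p = 0.00516) from 1.26 to 2.49 TPM in deficient to 3.98 and 4.57 TPM in high libraries. Pdk2, a kinase that inhibits the complex, was at 31.3, 27.7 and 26.9 TPM in deficient, 20.5 and 27.0 TPM in low and 11.7 and 9.59 TPM in high libraries, and fell by 1.34 ± 0.18 (adjusted p = 0.000766). Pdk3, another such kinase, had summits in 2 FLAG libraries and did not pass between high and deficient (adjusted p = 0.777). It fell by 0.37 ± 0.11 between high and low and rose by 0.41 ± 0.10 between low and deficient (adjusted p = 0.0336 and 0.0239). On log2 TPM with limma neither call held, and single libraries ended both (0.225 and 0.0837 at most).

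Enzymes that add to or draw from the cycle also differed. Pck2, the mitochondrial phosphoenolpyruvate carboxykinase, fell by 1.79 ± 0.18 (adjusted p = 0.000261), from 9.12 to 9.77 TPM in deficient to 2.48 and 2.69 TPM in high libraries. Acly, which turns citrate back into acetyl-CoA in the cytosol, fell by 0.56 ± 0.08 (adjusted p = 0.0014), and its low-STRA8 libraries, 95.8 and 88.7 TPM, were already near the high ones, 87.2 and 89.4 TPM. Pcx, pyruvate carboxylase, had summits in all 3 FLAG libraries and was at 90.9, 121 and 76.1 TPM in deficient, 68.6 and 65.0 TPM in low and 147 and 161 TPM in high libraries. It rose by 0.78 ± 0.16 against deficient and by 1.10 ± 0.18 against low (adjusted p = 0.00673 and 0.00311), the first at 0.0573 without high-STRA8 replicate 2. Glud1, glutamate dehydrogenase, fell by 0.44 ± 0.13 (adjusted p = 0.0319) with summits in 2 FLAG libraries, a call that ended without Stra8-deficient replicate 1 or 3 or either high-STRA8 library (0.164 at most).

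In the pentose phosphate shunt, which branches off at glucose-6-phosphate, the cytosolic dehydrogenases G6pdx and Pgd rose from deficient to high. G6pdx was at 24.4, 28.05 and 26.7 TPM in deficient and 44.7 and 44.4 TPM in high libraries (0.83 ± 0.11, adjusted p = 0.000932). Pgd was at 174, 179 and 180.1 TPM in deficient and 246 and 232 TPM in high libraries (0.50 ± 0.09, adjusted p = 0.00324), with summits in 2 FLAG libraries. H6pd, the dehydrogenase of the endoplasmic reticulum, which is named here after its values were seen, fell by 0.99 ± 0.25 (adjusted p = 0.0155), a call lost without Stra8-deficient replicate 1 or either high-STRA8 library (0.0989 at most). Pgls, Rpia and Rpe also had summits in 2 FLAG libraries, and none of these passed between high and deficient. Pgls fell by 0.72 ± 0.17 between high and low (adjusted p = 0.0122), up to 0.0785 without a high-STRA8 library. Rpia rose by 0.32 ± 0.09 between low and deficient (adjusted p = 0.0350), and leaving out any 1 library ended that call. Bpgm, which makes 2,3-bisphosphoglycerate as a detour from glycolysis, fell by 0.73 ± 0.11 (adjusted p = 0.00166), with the low libraries, 54.9 and 56.2 TPM, within the deficient range.

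Of the remaining genes with summits in at least 2 FLAG libraries, Hif1a, a transcription factor known to induce glycolytic genes in low oxygen, had them in all 3, with scores of 101, 88.1 and 27.7, and rose by 0.51 ± 0.13 (adjusted p = 0.0166). That adjusted p was 0.0824 and 0.108 without high-STRA8 replicate 1 and 2. Mpc1, a subunit of the mitochondrial pyruvate carrier, rose by 0.47 ± 0.15 (adjusted p = 0.0411), but the call ended on log2 TPM with limma (0.254) and without Stra8-deficient replicate 1 or either high-STRA8 library. Its partner Mpc2, the succinate dehydrogenase subunits Sdha and Sdhb, and cytosolic Idh1 did not pass between high and deficient, with the lowest adjusted p at 0.0598 for Sdha, which passed there with DESeq2 and with limma. Between high and low, Mpc2 fell by 0.55 ± 0.15, Sdha by 0.36 ± 0.10 and Sdhb by 0.54 ± 0.15 (adjusted p = 0.0209, 0.0235 and 0.0196), and each call was lost without low-STRA8 replicate 2 or either high-STRA8 library. Between low and deficient, Mpc2 and Sdhb rose by 0.44 ± 0.14 and 0.52 ± 0.13 (adjusted p = 0.0466 and 0.0254), and both calls were lost without Stra8-deficient replicate 1 or 2, low-STRA8 replicate 2 or high-STRA8 replicate 1, and on log2 TPM with limma. The Mpc2 call was also lost without low-STRA8 replicate 1 or high-STRA8 replicate 2. Sdhaf2, an assembly factor, had summits in 3 FLAG libraries and in 1 wild-type library, so it was not counted as bound.

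**Figure D5:**
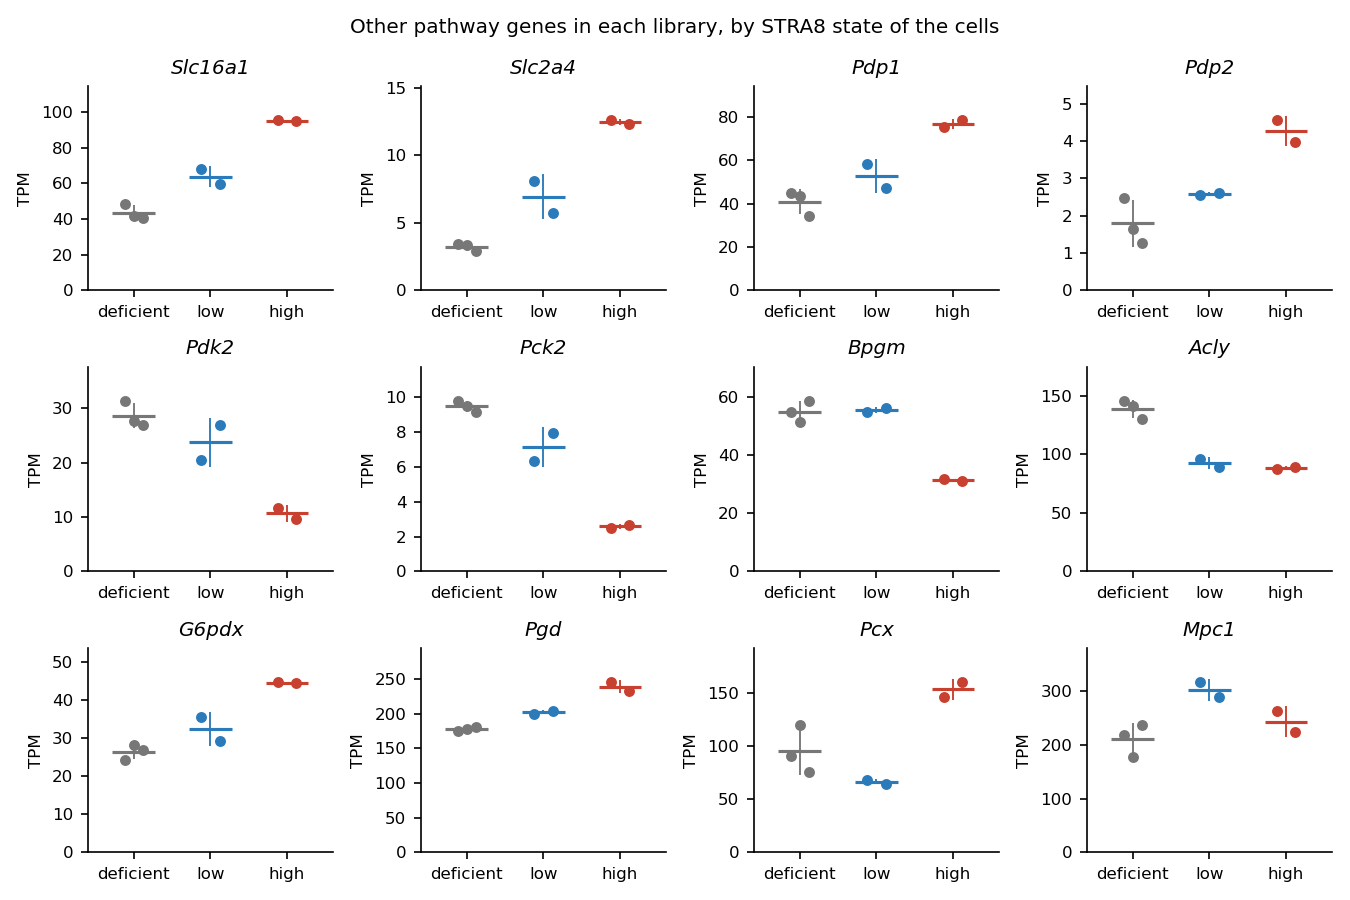
TPM of 12 other genes of the pathway in each library (points), with the group mean (horizontal line) and SD (vertical line), for Stra8-deficient (n = 3), low-STRA8 (n = 2) and high-STRA8 (n = 2) cells. Each axis starts at 0. Slc16a1 and Slc2a4 form 3 separate steps, with Slc16a1 at 95.4 and 94.9 TPM in high-STRA8 cells, and Pck2, Pdk2 and Bpgm are lowest there.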

How the data were processed

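The authors quantified 40-base single-end reads with kallisto 0.43.0, and the deposited tables hold estimated counts and TPM per transcript or gene. The authors rescaled TPM over protein-coding genes. For ChIP-seq the authors aligned reads with Bowtie 1.2.0 and called peaks per library with MACS2 2.1.1.20160309 on mm10, and the deposited summit files give a -log10 p score per summit. The deposited signal tracks and fold-change tables were not used.

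Here, transcripts were assigned to genes with the GENCODE M21 annotation (75554 of 75737 matched), estimated counts were summed per gene and rounded, and genes above 1 TPM in at least 1 library were kept. Of 12545 expressed genes, 28 could not be joined. The 12517 others were fitted with edgeR 4.0.16 in R 4.3.3 (TMM, quasi-likelihood, robust) in 1 fit of all 7 libraries, with Benjamini-Hochberg adjustment over all genes and a threshold of 0.05. The analysis was tested on simulated data. The genes and lists were chosen with earlier results of these data known. Genes of the set past the threshold or with a summit are given by library, and others by group or range. Other pathway genes are named if they had the 10 lowest adjusted p between high-STRA8 and Stra8-deficient cells or summits in at least 2 FLAG/FLAG libraries. Alternatives were DESeq2 1.42.0, limma 3.58.1 on log2 TPM, other filters, length offsets, a replicate block and leaving out each library. No source says whether the libraries of a group came from separate litters, so p-values measure the spread between these libraries. Replicate libraries differed by more than sampling noise (chi-square per degree of freedom of 9.28 to 38.2).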

Additional observations from a re-analysis of the deposited data

How the results depend on the processing

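Leaving out 1 library gave 3 to 9 lower and 1 to 4 higher between high-STRA8 and Stra8-deficient cells (7 and 3 with all), 3 to 14 lower and 0 to 3 higher between high and low (11 and 1), and 0 to 3 lower and 1 to 5 higher between low and deficient (0 and 6). With limma on log2(TPM + 1) or log2(TPM + 0.1), 11 fell in the first comparison, 7 in the second and 1 in the third, where 0 rose. With the length trend removed, 7 fell in the second and 3 rose in the third. DESeq2 gave 8 lower and 3 higher, 14 lower and 2 higher, and 0 lower and 6 higher. The genes behind a count were not always the same. Between low and deficient, Tpi1, Gapdh, Cs and Idh3a lost their calls without low-STRA8 replicate 2, and genes outside the 6 entered. The cause of these differences was not tested.

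With the replicate block, 6 fell and 3 rose, 10 fell and 1 rose, and 0 fell and 4 rose in the 3 comparisons. Same-numbered libraries did not deviate together, with correlations of -0.166 to -0.029, so the numbers were not taken as pairs. A crossed replicate block of the low- and high-STRA8 libraries, chosen after seeing the data, gave 13 lower and 1 higher between them.

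Without low-STRA8 replicate 1, 4 estimates changed sign and passed: Ldhb was at -1.04 and Slc2a12 at -1.61 between low and deficient, and Slc2a12 was at 1.90 and Slc16a3 at 0.48 between high and low. Without low-STRA8 replicate 2 the same 4 were at 0.77, 1.34, -1.05 and -0.94. Bound genes of the set numbered 8 with a summit required in 1 FLAG/FLAG library, 3 in all 3 and 3 at a score of at least 10, and 3 to 5 when 1 FLAG/FLAG library was left out. With 2 or 3 libraries a group, small differences may go undetected.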
